A study of Homo sapiens with 16 samples.

Results

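The genes described here are the ZNF zinc finger mRNAs that came down in quantity with RISC, the Argonaute-containing silencing complex, from HEK 293 cells, an immortalised human embryonic kidney line. They were chosen by name and by level: a symbol made of ZNF, a number and at most 1 further letter, and a mean of at least 20 CPM (its count scaled to a fixed library total) over 12 libraries. This gave 177 members of 508 ZNF symbols in a table of 19077 entries. The level that chose them is a description of these same libraries and is not a result. The symbol pattern takes in 5 genes that RefSeq now names otherwise: ZNF642 (ZFP69), ZNF187 (ZSCAN26), ZNF259 (ZPR1), ZNF238 (ZBTB18) and ZNF295 (ZBTB21). RefSeq accessions matched 175 of the members, and ZNF654 and ZNF385C were not matched.

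RNA precipitated with RISC was sequenced in 16 libraries, each named for a microRNA (miRNA). In RISC-trap, a dominant-negative fragment of GW182 stabilises the contact between the miRNA-loaded complex and its mRNAs, which are then immunoprecipitated together. The 12 that chose the members are 2 for each of mir550-3p, mir3613-5p, mir1301-3p, mir1271-5p, mir1260a-5p and mir1180-3p. For mir124-3p there was 1 library titled Solid and 3 titled Illumina. All 16 came from the same HEK 293 line, with Trizol extraction and a SOLiD total RNA kit in the labels. Their titles differ in the miRNA, the platform for mir124-3p and the word Replicate. Columns of mir1180-3p, mir1260a-5p, mir1271-5p and mir3613-5p are named Sample with a number, and those of mir1301-3p and mir550-3p carry the miRNA number. The mir124-3p Illumina columns are named L with a number. Whether these names mark separate series is not stated. The labels do not name the sequencer of the 12. Column names of both mir550-3p libraries and of mir1301-3p replicate 2 contain bio, but the labels do not say whether this means separate cultures. For the other miRNAs nothing is said of cultures. The p-values are set against the spread between libraries, which may be technical. No library without a miRNA is among them. Each miRNA was therefore set against the mean of the other 5, and the background of the precipitation itself was not measured.

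Most ZNF genes encode proteins with a row of C2H2 fingers, each of which reads a few bases of DNA. Many also carry a KRAB domain, which binds TRIM28 and through it brings SETDB1, HP1 proteins (CBX genes) and histone deacetylases to silence transposable elements and genes. Others carry SCAN or BTB domains, and some bind RNA or ribosomes in place of DNA. Repeated finger-coding sequence has been described to hold several sites for the same miRNA in some of these mRNAs.

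The mature miRNAs are shown because each group is defined by one such sequence, and a target site pairs first with the seed. The sequences are RefSeq's, on GRCh38.p14, written 5′ to 3′ with the seed (bases 2 to 8) in capitals. RefSeq lists the mir1260a product without an arm, and mir550-3p was read as hsa-miR-550a-3p because the table's column names give 550a.
hsa-miR-1180-3p: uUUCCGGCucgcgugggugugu
hsa-miR-1260a: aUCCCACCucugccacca
hsa-miR-1271-5p: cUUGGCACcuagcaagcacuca
hsa-miR-1301-3p: uUGCAGCUgccugggagugacuuc
hsa-miR-3613-5p: uGUUGUACuuuuuuuuuuguuc
hsa-miR-550a-3p: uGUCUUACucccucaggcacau
The 6 miRNAs have 6 different seeds, so no 2 of these groups share one. MIR1180 lies on the minus strand at chr17:19344513-19344534 within the bounds of B9D1, and MIR1301 on the minus strand at chr2:25328651-25328674 within those of DNMT3A. MIR1260A lies on the plus strand at chr14:77266231-77266248 within NGB, and MIR1271 on the plus strand at chr5:176367960-176367981 within ARL10. MIR3613 lies at chr13:49996465-49996486 on the minus strand. The mir550-3p sequence occurs at chr7:29680748-29680769 on the minus strand (MIR550A3) and at chr7:32733041-32733062 on the plus strand (MIR550A2). Whether the members hold matches to these seeds was not analysed here.

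Total counts ran from 7612758 to 17972321 in the 12 libraries and up to 26527365 in the mir124-3p Illumina libraries. The lowest count of any member in any of the 12 was 41. The common biological coefficient of variation between libraries of a miRNA was 0.350. All 9 HEK 293 markers were detected in every group, at 521 to 1088 CPM for VIM but down to 0.354 CPM for KRT8. The mir1301-3p libraries stood apart: 8 fibroblast and mesenchyme markers summed to between 85.5 and 211 CPM there and to between 15.5 and 27.9 CPM in the other 10, and 6 of the 8 were called higher. Of 5 blood markers tested 2, and of 4 liver and keratinocyte markers 2, were also called higher with mir1301-3p, and 0 of 6 neuron and glia markers. Of all genes tested 11.5% were called higher with mir1301-3p, but 2.88% of those with at least 20 CPM. Every blood, fibroblast and mesenchyme, liver and keratinocyte, and neuron and glia marker had a median under 20 CPM over the 12 libraries. None of the lists had a marker called for the other 5 miRNAs. Results for mir1301-3p are therefore given beside these values, and their part in them was not tested.

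Mean levels of the members ran from 20.1 to 1089 CPM with a median of 40.1, and 33 members were above 100. CPM are not divided by transcript length, so levels are compared between libraries and not between genes. Just inside the threshold were ZNF709 (20.5 CPM), ZNF516 (20.5) and ZNF440 (20.1), and just outside it ZNF385A (19.7), ZNF562 (19.7) and ZNF100 (19.6). Of all ZNF symbols 34.8% reached 20 CPM, against 40.6% of all entries (7741 genes). Together the members took between 1.11% and 1.44% of all counts in the 12 libraries, 1.05% in mir124-3p Solid and between 0.703% and 0.764% in mir124-3p Illumina. Because the threshold is a mean, 18 members passed it while their mean over the 10 libraries outside some miRNA was under 20 CPM. Members with near-identical relatives can share reads, and their single values are uncertain for that reason.

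The 10 members with the highest mean CPM were ZNF503, ZNF367, ZNF664, ZNF280B, ZNF238, ZNF644, ZNF22, ZNF639, ZNF638 and ZNF267. They behaved differently across the miRNAs. From here on, CPM are scaled between libraries by the trimmed mean of M values. ZNF503, a repressor of the NET family with a role in striatal development, ran from 381 CPM at its lowest to a median of 879 and a highest value of 2587. ZNF644, a partner of the G9a and GLP histone methyltransferases, ran from 185 to 524 CPM with a median of 224. ZNF22 stayed between 131 and 261 CPM, and ZNF639 between 135 and 239 CPM. By coefficient of variation (SD over mean of the 12) the steadiest member was ZNF473 at 17.0%, whose protein takes part in histone pre-mRNA processing, and the most variable was ZNF230 at 122%. The median over members was 37.1%, beside 34.3% over all 7741 genes of at least 20 CPM. The highest group mean was a median of 2.20 times the lowest, and over 4 times in 21 members.

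Across the 6 miRNAs as a whole, 21 of the 177 members differed (11.9%, edgeR quasi-likelihood F test, adjusted p under 0.05 over 17658 genes), where 5.72% of all genes tested and 8.16% of those with at least 20 CPM did. The count was 12 without mir1180-3p replicate 1, 10 without mir1180-3p replicate 2, 11 without mir550-3p replicate 1 and 9 without mir550-3p replicate 2, and 60 with DESeq2. Shares of all genes called under these alternatives are not given, so the counts are not read as a trait of the members. The 6 members with the smallest p were ZNF230, ZNF101, ZNF17, ZNF267, ZNF350 and ZNF280B, and their adjusted p lay between 1.07e-04 and 0.00598. These 6 were called in this test under each of 16 alternatives, the highest adjusted p being 0.0458 for ZNF280B. The alternatives reuse the same libraries and members. ZNF230, ZNF101 and ZNF280B had their highest group mean with mir1180-3p, ZNF17 and ZNF350 with mir1260a-5p, and ZNF267 with mir1271-5p. ZNF230 and ZNF350 were under 20 CPM in the mean of the libraries without that miRNA, so a difference was built into their choice. ZNF230 stood at 86.6 ± 13.4 CPM (SD, n = 2) with mir1180-3p and at 22.3 CPM or less as a group mean elsewhere. ZNF101 stood high with both mir1180-3p (143 CPM) and mir1271-5p (94.9 ± 33.3), and its lowest group mean was 11.96 CPM with mir1301-3p.

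**Figure D1:**
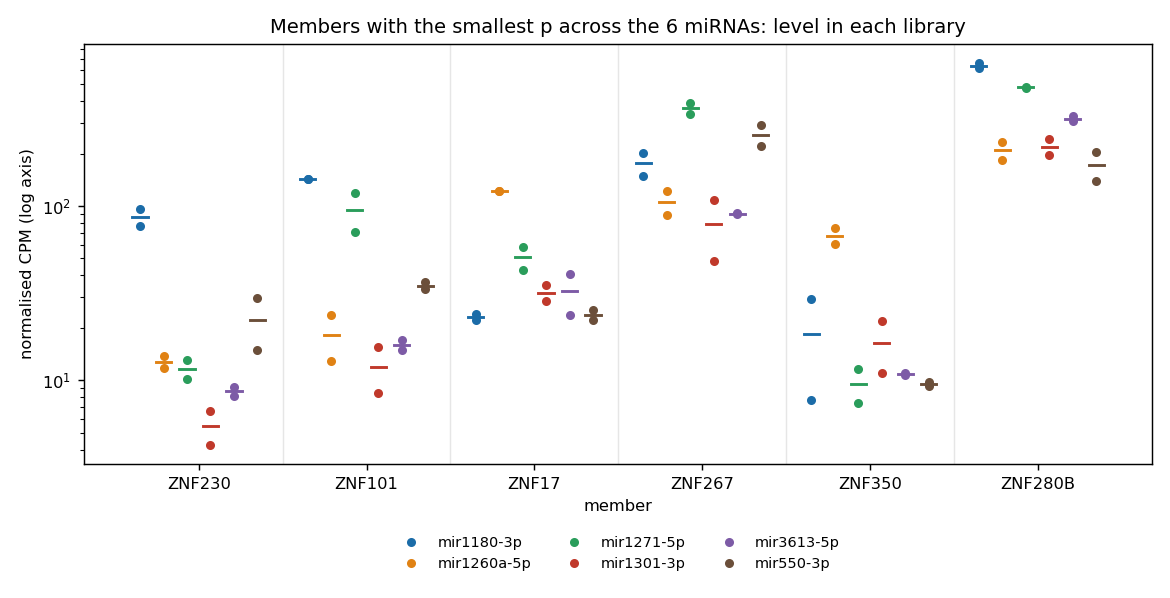
Normalised CPM on a log axis of the 6 members with the smallest p across the 6 miRNAs. Each dot is a library and each bar the mean of 2. ZNF230 is high in both mir1180-3p libraries, ZNF17 and ZNF350 in both mir1260a-5p libraries and ZNF267 in both mir1271-5p libraries. ZNF230 and ZNF350 reached the 20 CPM threshold only through the miRNA where they are high.

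With mir1180-3p, 8 of 177 members rose (4.52%) where 1.92% of all genes tested and 2.61% of those with at least 20 CPM did, and none fell (0.153% of all genes). For the lower direction edgeR had 15 members at an unadjusted p under 0.05, and DESeq2 called 3; edgeR called 1 without mir1271-5p replicate 1 or replicate 2. Members chosen on the other 10 libraries alone gave 5 higher calls of 182. That is near the 2.61% of genes of at least 20 CPM, so the 8 are not read as an excess. ZNF230 had 96.1 and 77.1 CPM in its libraries, and the other 10 ran from 4.26 to 29.6 with a median of 11.0. Both mir1180-3p values lay above the rest. Its log2 fold change (± SE) was 2.98 ± 0.27, with adjusted p = 2.60e-06. ZNF101 had 143 CPM in both libraries against 8.43 to 118 elsewhere (median 20.3), a log2 fold change of 2.47 ± 0.27 (adjusted p = 2.52e-05). The highest of the others, at 118 CPM, was a mir1271-5p library.

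ZNF440 followed, with 47.9 and 52.2 CPM against 8.56 to 20.7 (median 13.7) and a log2 fold change of 1.85 ± 0.28 (adjusted p = 5.68e-04). ZNF83 had 55.5 and 47.2 CPM against 10.02 to 34.4, also with no overlap (1.45 ± 0.28, adjusted p = 0.00695). ZNF280B had 660 and 618 CPM against 140 to 480 (1.30 ± 0.23, adjusted p = 0.00338). These groups did not overlap. ZNF678 had 227 and 237 CPM against 77.4 to 128 (1.20 ± 0.24, adjusted p = 0.00836), and ZNF480 had 87.0 and 122 against 18.2 to 69.9 (1.44 ± 0.32, adjusted p = 0.0210). ZNF791 was the member whose groups overlapped, with 147 and 153 CPM against 19.2 to 178 (1.33 ± 0.32, adjusted p = 0.0357). ZNF230, ZNF440 and ZNF83 were under 20 CPM in the mean of the other 10 libraries, so a difference was built into their choice. ZNF230, ZNF101 and ZNF440 kept their calls without either mir1180-3p library, and the count then fell from 8 to 3. Without mir550-3p replicate 1 the adjusted p of ZNF480 was 0.0565 and that of ZNF791 0.0753. The ZNF791 call also ended without mir550-3p replicate 2 (0.0774), without mir1301-3p replicate 2 (0.0576) and with both mir1301-3p libraries left out (0.109).

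With mir1260a-5p, 2 of 177 members rose (1.13%), where 0.215% of all genes and 0.297% of those with at least 20 CPM did. None fell (0.0% of all genes, with 7 members at an unadjusted p under 0.05 in edgeR and 0 calls by DESeq2). ZNF17 had 123 and 122 CPM against 22.2 to 58.5 in the other 10 (median 26.9). The log2 fold change was 1.98 ± 0.25 (adjusted p = 9.36e-04), and the call held without either own library. ZNF350, also called ZBRK1, a KRAB repressor that binds BRCA1, had 74.4 and 60.7 CPM against 7.37 to 29.3 (median 10.9). Both of its values lay above the others, with a log2 fold change of 2.44 ± 0.34 (adjusted p = 0.00220). Without mir1260a-5p replicate 1 its adjusted p was 0.0683 and 1 member was called. ZNF350 was under 20 CPM in the mean of the other 10. With members chosen on the other 10 libraries alone, 1 of 175 was called higher.

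With mir1271-5p, again 2 of 177 members rose (1.13%), where 0.606% of all genes and 1.2% of those with at least 20 CPM did. None fell (0.0% of all genes, with 2 members at an unadjusted p under 0.05 in edgeR and 0 calls by DESeq2). ZNF101 had 118 and 71.3 CPM, above 8 of the other 10 libraries but below the mir1180-3p pair at 143. Its log2 fold change was 1.76 ± 0.28 (adjusted p = 0.00474, and 0.130 without mir1271-5p replicate 1). ZNF267 had 339 and 390 CPM against 48.2 to 290 (median 115), with no overlap (1.52 ± 0.27, adjusted p = 0.00960, and 0.157 without mir1271-5p replicate 2). The count was 1 without mir1271-5p replicate 2 and 4 without mir1260a-5p replicate 1. The median log2 fold change of the members was 0.26, beside 0.25 for all genes of at least 20 CPM, with 33 of the 177 below 0. It was 0.01 under upper-quartile scaling, with 85 below 0. Without mir1271-5p replicate 1, the deepest of the 12 libraries, it was -0.06, and without mir1271-5p replicate 2 it was 0.51. The 2 libraries of this miRNA thus differed in the median of the members. Upper-quartile scaling moved the median of all genes from 0.05 to -0.19, and relative to it the members were 0.21 and 0.20 higher.

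With mir550-3p, 7 members rose (1.2% of all genes and 2.2% of those with at least 20 CPM did) and 1 fell (0.306%). The highest fold change was that of ZNF382, a KRAB repressor, with 28.1 and 78.4 CPM against 6.52 to 33.4 (median 12.3). Its libraries differed and the lower one overlapped the rest (1.91 ± 0.37, adjusted p = 0.0138, and 0.574 without mir550-3p replicate 2). ZNF273 had 136 and 124 CPM against 26.1 to 72.9 (1.61 ± 0.26, adjusted p = 0.00493). ZNF410, an activator whose main known target is CHD4 of the NuRD complex, had 288 and 306 CPM against 43.9 to 232 (1.42 ± 0.27, adjusted p = 0.0135). Neither overlapped the other miRNAs. CHD4 itself was at 57.0 CPM as the mir550-3p mean, within the other 5 group means of 41.5 to 82.7, and was not called. These are levels of RNA recovered with RISC, and they do not show whether ZNF410 activity changed.

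ZNF232, a SCAN zinc finger, had 62.8 and 107 CPM against 16.3 to 57.7 (1.40 ± 0.30, adjusted p = 0.0243). ZNF211 had 37.9 and 50.9 CPM against 7.44 to 37.7 (1.39 ± 0.30, adjusted p = 0.0251). ZNF195 had 196 and 355 CPM against 82.2 to 217, with overlap (1.13 ± 0.27, adjusted p = 0.0437), and ZNF92 had 220 and 229 against 80.3 to 182 (1.02 ± 0.25, adjusted p = 0.0480). ZNF227 fell, with 16.8 and 26.2 CPM against 25.98 to 199 (median 92.1), a log2 fold change of -2.07 ± 0.45 (adjusted p = 0.0290). Its higher value lay just above the lowest of the other 10. ZNF382 and ZNF211 were under 20 CPM without the mir550-3p libraries. Members chosen on the other 10 libraries alone gave 5 higher and 2 lower calls of 184. Of genes of at least 20 CPM 2.2% rose and 0.362% fell.

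These mir550-3p calls rested on both libraries: 1 of the 7 higher calls was kept without replicate 1 (ZNF382, adjusted p = 0.0202) and 0 without replicate 2. The higher count was also 3 without mir1180-3p replicate 2 and 4 without mir3613-5p replicate 2. It was 4 with both mir1301-3p libraries left out, and 13 with DESeq2. Under upper-quartile scaling the split was 5 higher and 3 lower, and without mir1260a-5p replicate 1 or either mir1271-5p library 2 members were lower. The ZNF227 call ended without either mir550-3p library (adjusted p = 0.381 and 0.302), without mir1180-3p replicate 1 (0.0530) or replicate 2 (0.0531), and with mir1301-3p left out (0.0793). ZNF195 lost its call without mir1180-3p replicate 1 (0.0737) or 2 (0.0856), mir1260a-5p replicate 1 (0.0508), mir1301-3p replicate 1 (0.0648) or 2 (0.0586), and mir3613-5p replicate 2 (0.0729). ZNF92 lost its call without any of the same libraries or mir3613-5p replicate 1, with adjusted p from 0.0560 to 0.0934 over these. ZNF232 lost it without mir1180-3p replicate 2 (0.0546) or mir3613-5p replicate 2 (0.0505), and ZNF211 without mir1180-3p replicate 2 (0.0523). With mir1301-3p left out the adjusted p was 0.0938 for ZNF211, 0.129 for ZNF195 and 0.109 for ZNF92, and under upper-quartile scaling 0.0545 for ZNF195 and 0.0589 for ZNF92.

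**Figure D2:**
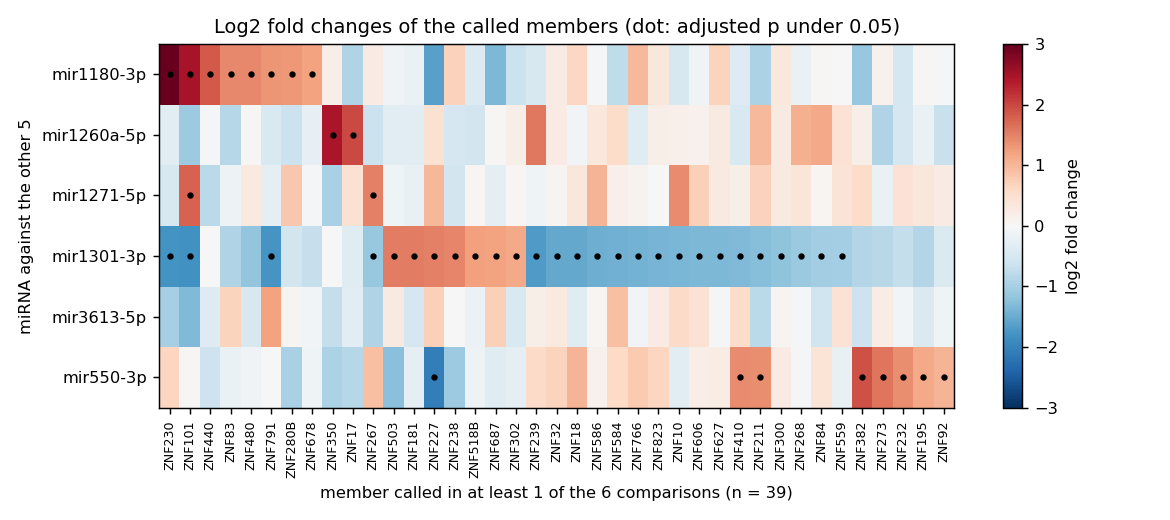
Log2 fold change of each miRNA against the other 5 for the 39 members called in at least 1 of these comparisons, with a dot where the adjusted p was under 0.05. The comparisons share control libraries, so a member high with 1 miRNA raises the reference of the others; the mir1301-3p row holds 7 higher and 20 lower calls.

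With mir1301-3p, 20 of 177 members fell (11.3%) and 7 rose (3.95%). Over all genes tested the shares ran the other way, 4.39% lower and 11.5% higher, but over the 7741 genes of at least 20 CPM they were 8.86% lower and 2.88% higher, near those of the members. The median log2 fold change was -0.55 in the members, -0.45 in genes of at least 20 CPM and -0.02 in all genes, and 146 of 177 members were below 0. mir1301-3p was the lowest of the 6 groups for 102 members (57.6%), and for 50.3% of genes of at least 20 CPM. Upper-quartile scaling moved the median of all genes to 0.38 and that of the members to -0.13, with 113 below 0, and gave 15 higher and 12 lower calls. Relative to all genes the members were 0.53 lower with the main scaling and 0.51 lower with that one. The lower count was 13 without mir1180-3p replicate 1, 33 without mir1271-5p replicate 2, 40 with DESeq2, and 1 and 0 without mir1301-3p replicates 1 and 2. The higher count was 1 without either mir1301-3p library. Members chosen on the other 10 libraries alone gave 5 higher and 23 lower calls of 173.

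ZNF503 had the largest increase with mir1301-3p. It had 1873 and 2587 CPM against 381 to 1235 in the other 10 (median 783), with no overlap. Its log2 fold change was 1.54 ± 0.26 (adjusted p = 0.00343, and 0.0847 without mir1301-3p replicate 2). ZNF238, the ZBTB18 repressor of cortical neuron development, had 688 and 459 CPM against 103 to 420 (1.46 ± 0.28, adjusted p = 0.00710, and 0.129 without mir1301-3p replicate 1). ZNF181 had 85.3 and 77.0 CPM against 19.6 to 38.9 (1.53 ± 0.30, adjusted p = 0.00798). ZNF518B, another partner of G9a, had 43.0 and 50.4 CPM against 12.6 to 32.6 (1.23 ± 0.32, adjusted p = 0.0238). Of these groups none overlapped.

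ZNF227 had 143 and 196 CPM against 16.8 to 199 (1.51 ± 0.35, adjusted p = 0.0159), and its range was overlapped by other miRNAs. ZNF302 had 257 and 178 CPM against 60.2 to 171 (1.14 ± 0.32, adjusted p = 0.0295). ZNF687, which works in a chromatin reader complex with ZMYND8 and ZNF592, had 26.5 and 49.1 CPM against 5.00 to 32.9 (1.21 ± 0.34, adjusted p = 0.0301). ZNF687 and ZNF518B were under 20 CPM without the mir1301-3p libraries. ZNF181, ZNF227, ZNF518B, ZNF302 and ZNF687 lost their calls without either mir1301-3p library, with adjusted p from 0.0599 to 0.385. Without mir550-3p replicate 1 the adjusted p was 0.0586 for ZNF302 and 0.0564 for ZNF687, and without mir1180-3p replicate 1 it was 0.0578 for ZNF302. The fibroblast and mesenchyme markers that were higher in the same 2 libraries are given above.

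The largest decreases with mir1301-3p were in ZNF101 and ZNF230. ZNF101 had 15.5 and 8.43 CPM against 12.8 to 143 (median 34.9), a log2 fold change of -1.83 ± 0.37 (adjusted p = 0.0105). ZNF230 had 4.26 and 6.65 CPM against 8.08 to 96.1 (median 13.5), a change of -1.80 ± 0.38 (adjusted p = 0.0120). The reference of both holds the high mir1180-3p libraries. ZNF791 had 30.7 and 19.2 CPM against 34.2 to 178 (-1.77 ± 0.41, adjusted p = 0.0160), and ZNF239 had 9.15 and 5.85 against 11.9 to 55.8 (-1.71 ± 0.41, adjusted p = 0.0189). Of these 4, only ZNF101 overlapped the others.

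ZNF32 gave the tightest contrast among the named decreases, with 12.4 and 11.9 CPM against 29.5 to 43.7 (median 34.8; -1.53 ± 0.31, adjusted p = 0.0105). ZNF18, a SCAN zinc finger, had 23.6 and 42.4 CPM against 58.9 to 178 (-1.53 ± 0.34, adjusted p = 0.0146). Neither overlapped the other 10 libraries. The other 14 lower calls had log2 fold changes from -1.47 to -1.03. Without mir1301-3p replicate 1 only ZNF101 kept its lower call (adjusted p = 0.0461, and 0.121 without replicate 2). For ZNF230, ZNF791, ZNF239, ZNF32 and ZNF18 the adjusted p without either own library lay between 0.0527 and 0.165.

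**Figure D3:**
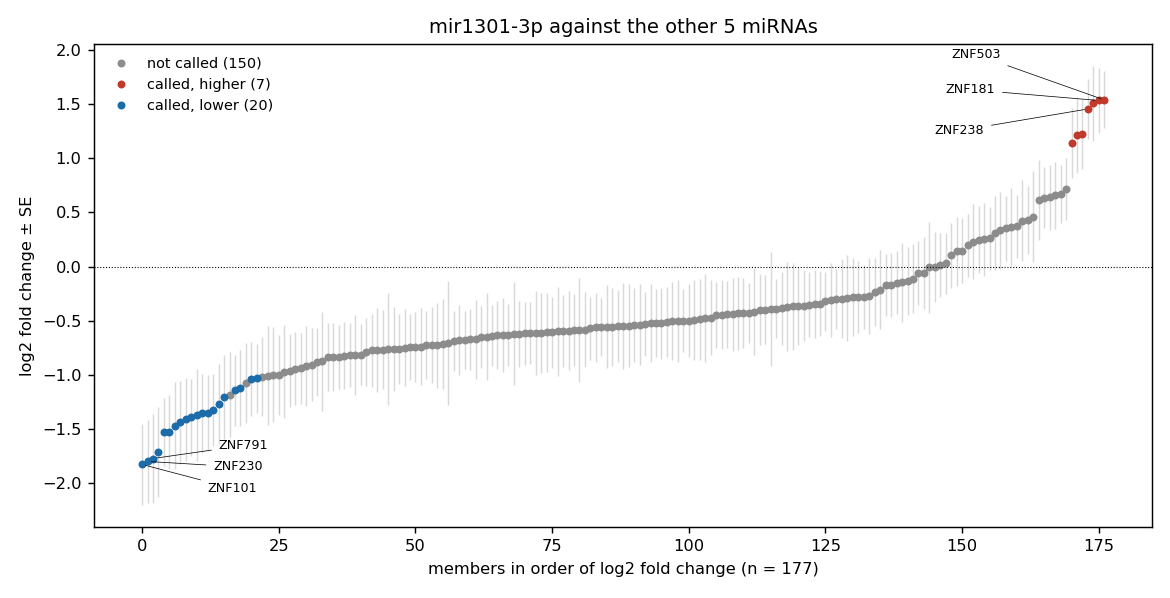
Log2 fold change (± SE) of mir1301-3p against the other 5 miRNAs for the 177 members in order of size. Blue marks the 20 that fell and red the 7 that rose; 146 members lie below 0.

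With mir3613-5p no member was called in either direction by edgeR (0.0906% of all genes rose and 0.0% fell). At an unadjusted p under 0.05 there were 13 members higher and 7 lower, and DESeq2 called 2 and 1. The median log2 fold change was 0.08 in the members and 0.14 in genes of at least 20 CPM.

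Counting members whose 2 libraries both lay beyond the other 10, without a test, 36 lay below with mir1301-3p (20.3%, beside 6.79% of all genes tested) and 6 above (3.39%, beside 14.4%). With mir1180-3p 9 lay above (2.79% of all genes did) and 1 below (2.15%), and with mir550-3p 11 above (4.12%) and 5 below (2.95%). With mir1260a-5p 6 lay above (0.923%) and 2 below (0.555%), with mir1271-5p 6 above (2.15%) and 0 below (1.21%), and with mir3613-5p 6 above (3.0%) and 2 below (2.32%). These shares are over all genes tested and are not matched to the level of the members. For mir1301-3p level matters: edgeR called 4.39% of all genes lower and 11.5% higher, but 8.86% and 2.88% of those with at least 20 CPM. The mir1301-3p counts are therefore not read as a trait of the members. The median log2 fold changes of members and of genes of at least 20 CPM were -0.10 and -0.18 for mir1180-3p, and 0.10 and 0.13 for mir550-3p. For mir1260a-5p they were -0.00 and -0.03. With upper-quartile scaling the members' median changed sign for mir1180-3p (0.06), mir3613-5p (-0.15) and mir550-3p (-0.02), so no direction is given for the whole set there. Library by library, the deviations of the members from their means correlated at 0.56 between the mir550-3p pair, 0.53 between the mir1180-3p pair and 0.50 between the mir1301-3p pair. The values were 0.25 for mir1260a-5p, 0.20 for mir3613-5p and 0.04 for mir1271-5p. Of the 12 libraries 8 were most like their own partner and 4 most like a library of another miRNA. For mir1271-5p replicate 1 that was mir550-3p replicate 2 (0.27), and for mir3613-5p replicate 2 it was mir1301-3p replicate 2 (0.28). These are Pearson correlations over the 177 members as a description, and libraries of a pair share the miRNA but differ in depth.

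**Figure D4:**
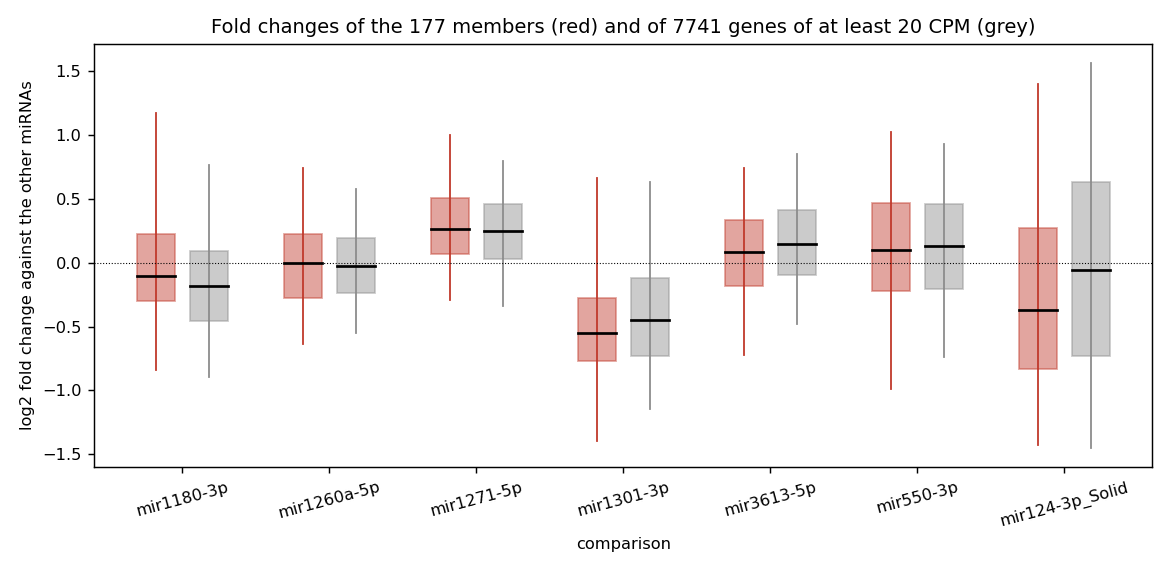
Log2 fold changes in each comparison for the 177 members (red) and the 7741 genes of at least 20 CPM (grey). Boxes span the 25th to 75th percentile around the median line and whiskers the 5th to 95th percentile; both sets sit lowest with mir1301-3p among the 6 miRNAs with medians of -0.55 and -0.45.

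Some ZNF proteins work outside classical repression. Of 11 listed genes that act on RNA or ribosomes, 10 were members, and 0 of the 10 were called by edgeR for any of the 6 miRNAs. Of all 177 members 138 were called for none, so nothing is read from that count. Median log2 fold changes of the 10 ran from -0.59 with mir1301-3p to 0.49 with mir550-3p. ZNF598, the ubiquitin ligase that marks collided ribosomes, stayed between 40.9 and 98.0 CPM over the 12 libraries. ZNF207 (BuGZ), a spindle and splicing factor, ran from 84.7 to 238 CPM, with group means from 87.6 CPM with mir1301-3p to 200 CPM with mir550-3p. ZNF622 and ZNF593, which act in the maturation of the large ribosomal subunit, had their lowest group means with mir1180-3p (32.0 and 26.7 CPM) and their highest with mir550-3p (79.0 and 66.3 CPM). None of these 4 passed the threshold across the 6 miRNAs (lowest adjusted p = 0.0734, ZNF622). ZNF638, which binds RNA in the nucleus, ran from 98.2 to 313 CPM, ZNF326 of the DBIRD elongation complex from 19.2 to 106, and ZNF346, which binds double-stranded RNA, from 29.5 to 64.9. ZNF277 (47.5 to 198 CPM), ZNF330 (43.1 to 136) and ZNF706 (39.1 to 97.9) make up the rest. DESeq2 called ZNF207 and ZNF277 lower with mir1301-3p and ZNF277 and ZNF622 higher with mir550-3p.

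Of 20 listed transcription and chromatin cofactors 12 were members, and ZNF687 with mir1301-3p was the 1 call among them for the 6 miRNAs, where 2.88% of genes of at least 20 CPM rose with mir1301-3p. ZNF592, its partner, was among the steadiest members, from 31.7 to 61.5 CPM. ZNF292, a large protein mutated in intellectual disability, differed across the 6 miRNAs (adjusted p = 0.0489), with group means from 95.3 CPM with mir1180-3p to 260 CPM with mir1271-5p. ZNF711, an X-linked intellectual disability gene, had its lowest group mean with mir1301-3p (80.5 CPM) and its highest with mir550-3p (205 CPM) and was not called (adjusted p = 0.194). The others were ZNF148, ZNF281, ZNF451, ZNF644, ZNF521, ZNF384, ZNF24 and ZNF274, whose adjusted p across the 6 miRNAs ran from 0.218 to 0.730. Of 5 listed repressors of retroelements, ZNF382 was the only member.

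The partners of KRAB zinc finger proteins were measured in the same libraries. Of 19 listed corepressor genes in the table, edgeR called 1 for mir1271-5p, 2 for mir1301-3p and 1 for mir550-3p. Over all genes tested, 0.606% were higher with mir1271-5p, 11.5% higher and 4.39% lower with mir1301-3p, and 0.306% lower with mir550-3p. CBX5, which encodes an HP1 protein, had 111 and 160 CPM with mir1271-5p and rose by a log2 fold change of 1.28 ± 0.25, with adjusted p = 0.0182. That call ended without mir1271-5p replicate 2 (0.229) or mir550-3p replicate 2 (0.0581), under upper-quartile scaling (0.103) and with mir1301-3p left out (0.0655). DNMT1, the maintenance DNA methyltransferase, had 27.9 and 23.5 CPM with mir1301-3p and a log2 fold change of -1.41 ± 0.34 (adjusted p = 0.0185, and 0.1198 or 0.151 without an own library). ZFP57, a KRAB zinc finger protein of imprinting control, had 9.98 and 7.64 CPM with mir1301-3p (1.75 ± 0.39, adjusted p = 0.0150, and 0.152 or 0.0894 without an own library).

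ZFP57 had 1.03 and 0.731 CPM with mir550-3p (-2.23 ± 0.54, adjusted p = 0.0480). That call was lost without 9 of the 12 libraries, both mir550-3p libraries (0.299 and 0.469), both of mir1180-3p (0.0803 and 0.0716), both of mir1301-3p (0.0765 and 0.0643), both of mir3613-5p (0.0593 and 0.0595) and mir1260a-5p replicate 1 (0.0618). It was also lost under upper-quartile scaling (0.0596) and with mir1301-3p left out (0.148). TRIM28 itself ran from 22.4 to 90.9 CPM and SETDB1 from 16.8 to 40.4 CPM over the 12 libraries, and neither was called. Of other zinc finger genes, 2 were higher and 1 lower of 20 SCAN genes with mir1301-3p, 2 and 1 of 38 BTB genes, and 3 and 0 of 20 ZFP genes, where 11.5% of all genes tested were higher and 4.39% lower. Of 322 ZNF symbols under 20 CPM that were tested, 29 rose and 12 fell, at a median log2 fold change of 0.05.

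In the mir124-3p Solid library, which did not choose the members, 12 members were higher (7.31% of 18135 genes tested and 9.4% of those with at least 20 CPM were) and 7 lower (1.58% and 3.44%). This group has no replicate: the test set 1 library against the mean of the 6 miRNAs and assumed that it varies like them. Its p-values compare that library, not the miRNA, with the others, and platform and miRNA cannot be told apart in it. Upper-quartile scaling gave 10 higher and 19 lower, DESeq2 18 and 21, and without mir1271-5p replicate 2 there were 13 lower. The median of the members was -0.37, beside -0.06 for genes of at least 20 CPM and -0.12 for all genes. Values in this paragraph and the next are CPM scaled over all 16 libraries. ZNF131, a BTB zinc finger, had 350.5 CPM in the Solid library against 48.2 to 139 in the 12 (log2 fold change 2.09 ± 0.36, adjusted p = 0.00132). ZNF473 had 122 CPM against 24.5 to 40.6 (1.83 ± 0.33, adjusted p = 0.00190), and ZNF398, which interacts with the estrogen receptor, 278 against 48.0 to 124 (1.65 ± 0.30, adjusted p = 0.00215). All 12 lay above the 12 libraries. The others were ZNF7, ZNF317, ZNF32, ZNF3, ZNF77, ZNF346, ZNF282, ZNF783 and ZNF287, with log2 fold changes from 1.25 to 1.97. ZNF287 lost its call without mir550-3p replicate 1 (adjusted p = 0.0553) and under upper-quartile scaling (0.0515), as did ZNF783 under that scaling (0.0586).

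Lower in the Solid library was ZNF83, at 2.30 CPM from 29 counts, against 9.04 to 55.1 in the 12 (-3.31 ± 0.59, adjusted p = 0.00176). ZNF503 had 190 CPM against 384 to 2333 (-2.31 ± 0.49, adjusted p = 0.00597), and ZNF292 37.0 against 79.0 to 278 (-1.96 ± 0.45, adjusted p = 0.0108). ZNF800 had 38.7 CPM against 70.1 to 189 (-1.996 ± 0.53, adjusted p = 0.0235) and ZNF639 61.9 against 126 to 224 (-1.57 ± 0.42, adjusted p = 0.0266). All 7 lower calls lay below the 12 libraries. ZNF518A (26.7 CPM, -1.76) lost its call without any of 7 of the 12 libraries (mir1180-3p replicate 2, mir1260a-5p replicate 1, mir3613-5p replicate 1 and both each of mir1301-3p and mir550-3p), with adjusted p up to 0.0766. ZNF12 (54.9 CPM, -1.40) lost it without any library of mir1180-3p, mir3613-5p or mir550-3p, with adjusted p up to 0.0730. The 3 Illumina libraries, which share the miRNA and were not tested, gave ZNF131 297, 259 and 270 CPM, ZNF83 2.28, 3.64 and 1.94 CPM and ZNF503 96.1, 125 and 96.9 CPM. All 3 lay above the range of the 12 for 10 of the 12 higher members (not ZNF282 and ZNF287) and below it for 7 of the 7 lower ones. Over all 177 members all 3 lay above for 7.91% and below for 22.0%, and over genes of at least 20 CPM for 18.02% and 18.3%. Solid and Illumina are set beside the same 12 libraries, so the counts for the called members are no separate evidence. Of the 19 listed corepressors TRIM28 (1.68 ± 0.33) and HDAC1 (1.55 ± 0.31) were called higher in the Solid library and CBX3 (-1.47 ± 0.41) lower. They are to be read beside the shares of all genes called in that library, given in the paragraph above. The CBX3 call ended without either library of mir1180-3p or mir550-3p, with adjusted p from 0.0534 to 0.0620.

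**Figure D5:**
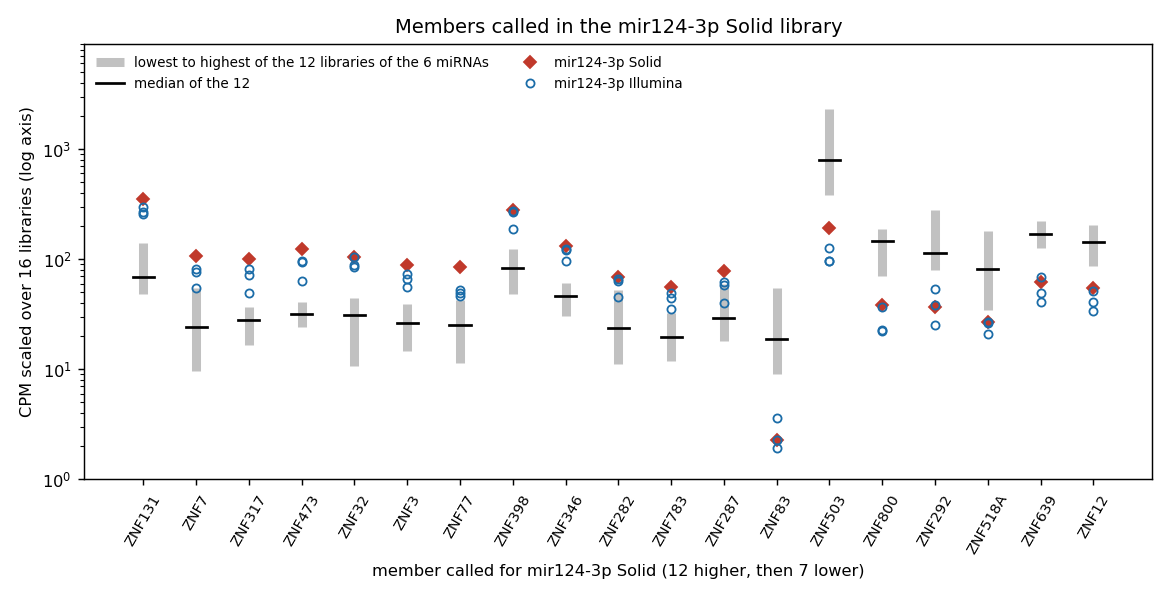
CPM scaled over 16 libraries, on a log axis, for the 19 members called in the mir124-3p Solid library. Grey bars span the 12 libraries of the other miRNAs with the median as a black line, the red diamond is the Solid library and open circles the 3 Illumina libraries; ZNF131 is at 350.5 CPM in Solid and above 259 CPM in Illumina against at most 139 CPM.

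Many ZNF genes stand in clusters. By the gene order of RefSeq, 93 of the 177 members had a ZNF gene as direct neighbour and 49 another member, in 29 adjacent pairs. With mir1301-3p a call fell in 7 of the 29 pairs, and in 3 of these both genes were called the same way. Among all members 3.95% rose and 11.3% fell with mir1301-3p. The pairs are given as a description, and a cluster effect was not tested. ZNF10, whose KRAB domain is used in CRISPR interference, and its neighbour ZNF268 had log2 fold changes of -1.37 and -1.12. ZNF627 and ZNF823 had -1.35 and -1.39, and ZNF302 and ZNF181 had 1.14 and 1.53. The calls of ZNF10, ZNF268, ZNF627 and ZNF823 ended without either mir1301-3p library, with adjusted p from 0.0747 to 0.209. ZNF10 also lost its call without mir1180-3p replicate 1 (0.0645), mir1271-5p replicate 1 (0.0501), mir3613-5p replicate 1 (0.0526) or mir550-3p replicate 2 (0.0585), and under upper-quartile scaling (0.0771). ZNF268 lost its call without either library of mir1180-3p (0.0545 and 0.0583) or mir550-3p (0.0535 and 0.0610) or without mir3613-5p replicate 1 (0.0548), and under upper-quartile scaling (0.0994). For mir1180-3p 1 pair and for mir550-3p 2 pairs held a call, and no pair had both genes called.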

How the data were processed

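Transcripts recovered with RISC were measured in 16 libraries. The authors deposited raw counts per RefSeq entry, 1 column per library, with no normalisation, and TopHat2 and hg19 are named in the submitters' processing notes. The sources used here do not name the annotation, the counting program or its strand setting. The count tests used edgeR 4.0.16 with limma 3.58.1 under R 4.3.3: filterByExpr, trimmed mean of M values scaling, and robust quasi-likelihood F tests (two-sided) of contrasts between groups, with Benjamini-Hochberg adjusted p over all genes tested and calls under 0.05. An error given with a log2 fold change is its SE, and with CPM the SD over libraries. Alternatives were DESeq2 1.42.0, upper-quartile scaling, no filter, each library left out, the replicate number as a block, other member thresholds, and, added after seeing the data, the mir1301-3p libraries left out of the reference.

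Members, lists and the naming rule were chosen with earlier results of these data known. Named members were the called ones (at most 12 higher and 6 lower per comparison), the 6 with the smallest p across the miRNAs, the 10 with the highest CPM, those next to the threshold, role group members and called corepressors. ZNF10, ZNF12, ZNF268, ZNF627, ZNF823, CHD4 and SETDB1 fall outside the rule and were named after their values were seen. Corepressor, role and marker lists and RefSeq sequences, names and gene order were used as given. The steps were tested on simulated data. Same-numbered libraries had deviations that correlated above 0.1 in 6 of 15 pairs of miRNAs (from -0.14 to 0.36, median 0.03). This does not settle whether the numbers pair libraries, and the main fit did not use them as pairs. Protein and transcript sequences were not used here.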

Additional observations from a re-analysis of the deposited data

How the results depend on the processing

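No call of a named member changed direction under any alternative run. With DESeq2 the members called (higher, then lower) were 13 and 9 for mir550-3p, 7 and 40 for mir1301-3p, 5 and 0 for mir1271-5p, 2 and 1 for mir3613-5p, 4 and 0 for mir1260a-5p, 9 and 3 for mir1180-3p, and 18 and 21 for mir124-3p Solid, and 60 differed across the 6 miRNAs. Upper-quartile scaling gave 15 and 12 for mir1301-3p, 5 and 3 for mir550-3p and 10 and 19 for mir124-3p Solid. Without a filter on low counts 2 members were lower with mir550-3p. With mir1301-3p left out of the reference, chosen after seeing the data, mir550-3p had 4 higher and 0 lower.

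Members at 50 CPM or more gave 4 higher for mir1180-3p, 0 for mir1260a-5p, 4 for mir1301-3p and 4 for mir550-3p, 9 lower for mir1301-3p, and 13 across the 6 miRNAs. Members at 10 CPM or more gave 4 higher for mir1260a-5p and 2 lower for mir550-3p. Members chosen on the 10 reference libraries gave 5 higher of 182 for mir1180-3p and 1 of 175 for mir1260a-5p. For mir1301-3p they gave 5 higher and 23 lower of 173, and for mir550-3p 5 higher and 2 lower of 184. The replicate block gave 1 lower for mir1180-3p in place of 0, and 28 lower for mir1301-3p and 24 across the miRNAs, and left the other counts as they were. The numbers do not mark a stated pairing.

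Leaving out 1 library at a time, higher calls ran from 3 to 9 for mir1180-3p, 1 to 3 for mir1260a-5p, 1 to 4 for mir1271-5p, 1 to 8 for mir1301-3p, 0 to 9 for mir550-3p and 11 to 13 for mir124-3p Solid. Lower calls ran from 0 to 1 for mir1180-3p, 0 to 33 for mir1301-3p, 0 to 2 for mir550-3p and 5 to 13 for mir124-3p Solid, and calls across the 6 miRNAs from 9 to 31. A group left with 1 library is assumed to vary like the others. Taking ribosomal protein genes out of the totals raised the members' share of counts to between 1.26% and 1.62% in the 12 libraries. The cause of these changes was not tested. No count under an alternative is read as a trait of the members, because the shares of all genes called there are not given. Each miRNA had 2 libraries, and how far depth limits the calls was not tested.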
